A study of Rattus norvegicus with 12 samples.

Results

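Open chromatin regions that appeared in the peak list of 1 library only were examined in rat amygdala, a brain area involved in fear and anxiety. The donors were adult males, with the strain given as Sprague Dawley/WT. Saline was injected intraperitoneally in the Control group and 1 g/kg ethanol in the Ethanol group, and tissue was taken 1 h later (n = 6 libraries each). Frozen bulk tissue was used, so each list mixes the neurons, glia and vessel cells of the area. Per the study's own description each library is 1 rat. The members were chosen by detection: all 730912 peaks of the 12 lists were merged wherever they overlapped by at least 1 bp, and a merged region was kept if exactly 1 library had a peak in it. This gave 41650 of 118874 regions (35.04%), of which 18688 came from Control and 22962 from Ethanol libraries. Each member held a single peak.

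ATAC-seq marks DNA that a transposase can reach, and a peak is a stretch where its insertions pile up above the surroundings. Promoters of active genes and regulatory elements used by most cells of a tissue give tall, broad peaks that are found again in every sample. Enhancers used by a small cell population, or weakly used by many cells, give low and narrow peaks that sit close to the limit at which a stretch is called at all. In bulk tissue these last 2 cases cannot be told apart, and the lists hold no read counts, so the depth of each library is unknown and the error of a single peak call cannot be computed. Positions are in the rat build Rnor_6.0 named in the submitters' processing notes. Genes at these positions were not analysed here.

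The number of libraries per region had 2 ends and a low middle. Behind the 41650 regions of 1 library came 14345 regions of exactly 2 libraries, the count fell to 3190 regions at 9 libraries, and it rose again to 21640 regions open in all 12. The single-library regions were the most frequent class by number but a small one by length and by peaks. They covered 26.77 Mb, or 12.41% of the 215.8 Mb in any region, while the regions of all 12 libraries covered 46.0%. They held 5.698% of all peaks, against 52.32% in the regions of all 12. Leaving out any 1 library and merging the remaining lists anew gave 40465 to 41652 single-library regions, or 35.04% to 35.9% of the union. Each omission removed the library's own members and turned some regions of 2 libraries into regions of 1.

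**Figure D1:**
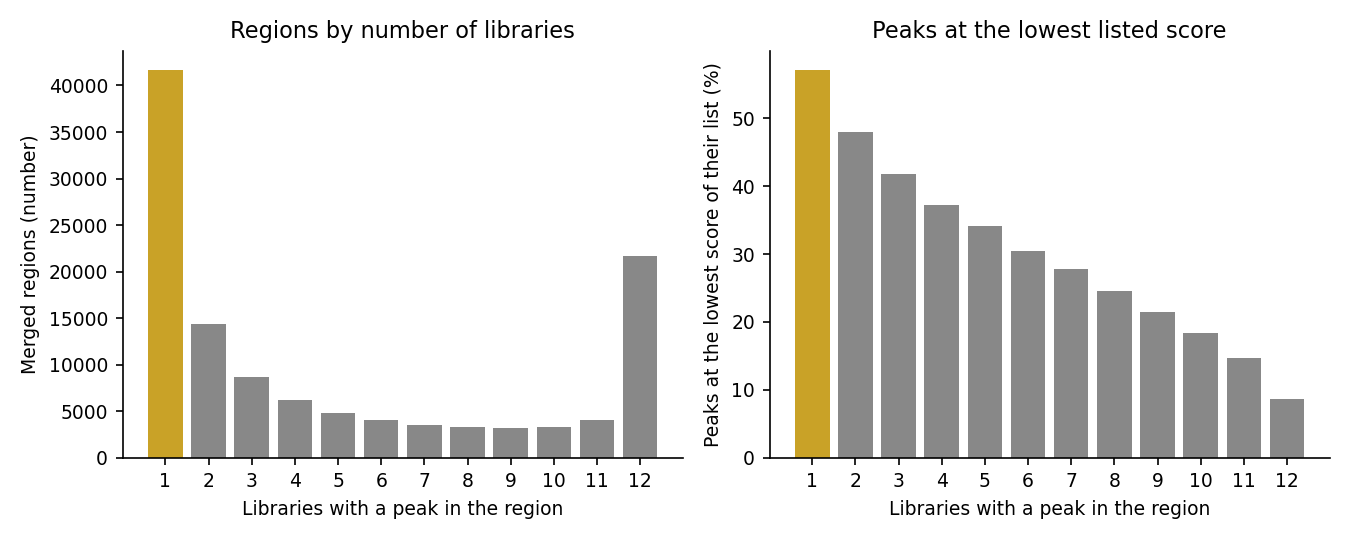
The left panel plots the number of merged regions (y axis) by the number of libraries with a peak in the region (x axis), and the right panel plots the percent of the peaks in those regions that carried the lowest score of their own list. Gold bars are the single-library regions. Their number was 41650 against 21640 for regions of all 12 libraries, and the percent at the lowest score fell from 57.08% to 8.704% across the classes.

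The members were low in their own lists. The score of a peak is the authors' value, used here only for its order within a library, where it takes 150 to 186 distinct values. Of the 41650 members, 23772 (57.08%) carried the lowest score of their list and 34045 (81.74%) one of the lowest 2. In the regions just outside the rule, those of exactly 2 libraries, 47.94% of the peaks carried the lowest score, and in regions of all 12 libraries 8.704% did. The median member ranked at percentile 10.82 of its list, against percentile 23.05 for peaks in regions of 2 libraries and 72.6 in regions of all 12. Tied peaks took their average rank, and 16.74% to 21.67% of each list shared its lowest score. The rank of this tie therefore differs between lists, and percentile 10.82 is its rank in Control 4, with no peak of that list scoring lower. Percentile 23.05 is the rank of the next score value in Ethanol 6. These 2 medians thus lie on the lowest and the next score value of a list. Only 1396 members (3.352%) ranked above percentile 50 of their list, and the highest of all was at percentile 86.88. Read in the other direction, 16.6% of all peaks at the lowest score lay in single-library regions, 10.23% of those at the next value and 0.1802% of the 316888 peaks above the fifth value. Even at the lowest score, 23.25% of peaks lay in regions open in all 12 libraries. These values come from the same peak calls as the rule and are given without a test.

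The members were also narrow. Their median width was 558 bp, with quartiles of 405 and 778.8 bp and a full range from 208 to 4493 bp. Peaks in regions of 2 libraries had a median of 662 bp, and peaks in regions of all 12 a median of 1607 bp. Within each library the members' median width was 0.428 to 0.481 times that of the library's other peaks. Only 5052 members (12.13%) were wider than 1000 bp and 235 (0.5642%) wider than 2000 bp, against 77.7% and 35.9% of the peaks in regions of all 12. By width, 29.02% of all peaks under 400 bp were members, 11.78% of those from 400 to 800 bp, and 0.3305% of those of 1600 bp or more. Width rose little with score among the members, from a median of 541 bp at the lowest score to 642 bp above the fifth value.

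A few members departed from this profile. The highest ranked was a Control region of 419 bp on chromosome 19 from 50418923 to 50419341, at percentile 86.88 of its list and 11177 bp from the nearest region, which was open in all 12 libraries. The next Control regions were on chromosome 1 from 36704735 to 36705530 (796 bp, percentile 74.86) and on chromosome 5 from 152784209 to 152785556 (1348 bp, percentile 74.36). The highest ranked Ethanol regions were on chromosome 9 from 46728680 to 46729644 (965 bp) and on chromosome 15 from 2366798 to 2367444 (647 bp), both at percentile 74.83. A region of 1273 bp on chromosome 20 from 30164305 to 30165577 followed at percentile 74.31. Of these 6 regions, 4 had a region of all 12 libraries as their nearest neighbour, and the closest of these lay 801 bp away.

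The widest members ranked above the median member of percentile 10.82 but below percentile 50 of their lists. The widest Ethanol member, 4493 bp on chromosome 10 from 11757184 to 11761676, ranked at percentile 23.05, and the widest Control member, 4459 bp on chromosome 5 from 73492519 to 73496977, at percentile 25.67. The second widest were 3440 bp long on chromosome 10 from 42669684 to 42673123 in Ethanol, at percentile 26.9, and 3102 bp long on chromosome 16 from 1940446 to 1943547 in Control, at percentile 37.52. Both Ethanol regions had another region within 57 bp, so they were counted as separate regions across a short gap.

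The comparison of the treatment groups asked whether ethanol changed how many such regions a library holds. The rule did not use the treatment, but a region open in 1 library is by definition absent from the others, so the counts of the libraries are linked. Control libraries held from 1807 to 5919 single-library regions with a median of 2197, and Ethanol libraries from 1517 to 6905 with a median of 3422. The group ranges overlapped over most of their length, and 1 of 6 Ethanol libraries lay above every Control library. The means were 3114.7 ± 1715.8 and 3827.0 ± 1921.7 (SD, n = 6 each), a difference smaller than the spread within either group (exact permutation p = 0.517; all permutation tests were two-sided). When each list was cut by score to the 50370 peaks of the shortest one, the means were 2613.5 ± 181.2 in Control and 2612.5 ± 446.3 in Ethanol, and the difference turned from 712.3 to -1 region (exact permutation p = 1). Of all members, 55.13% came from Ethanol libraries, which supplied 51.35% of all peaks.

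The 6 further measures of the members also overlapped between the groups. Single-library regions took from 3.393% to 8.096% of a library's peaks in Control, with a median of 4.054%, and from 3.012% to 9.104% in Ethanol, with a median of 5.533%. The mean share was 5.02% ± 1.96 in Control and 5.86% ± 2.12 in Ethanol (exact permutation p = 0.481). Their share of the covered length was 2.05% ± 0.91 and 2.46% ± 0.98 (SD over 6 libraries, exact permutation p = 0.461), and their total length 1.92 ± 1.25 Mb and 2.54 ± 1.58 Mb (SD over 6 libraries, exact permutation p = 0.476).

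The median width of the members ran from 485.5 to 596 bp in Control libraries and from 484 to 670 bp in Ethanol libraries. The means of 521.8 ± 41.7 bp and 561.8 ± 63.4 bp differed by less than the spread (SD over 6 libraries, exact permutation p = 0.238). The median score percentile was 9.98 ± 0.71 in Control and 12.1 ± 5.36 in Ethanol (SD over 6 libraries, exact permutation p = 0.578). The Ethanol value rested on 1 library, Ethanol 6, at percentile 23.05, without which and with the lists merged anew the difference was -0.0657 in place of 2.12. In every other library most members shared the lowest score, so the median was the rank of that tie. That rank follows how much of the whole list is tied there, so this test does not compare the members themselves. After Benjamini-Hochberg adjustment over the 7 measures, each exact permutation p was 0.636. The differences in number, in length and in both shares moved with single libraries in both directions. Without Ethanol 6 they were 129.8 regions, 0.0808 Mb, 0.242 and 0.140 percentage points, and without Control 6 they were 1472 regions, 1.25 Mb, 1.68 and 0.829 percentage points.

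**Figure D2:**
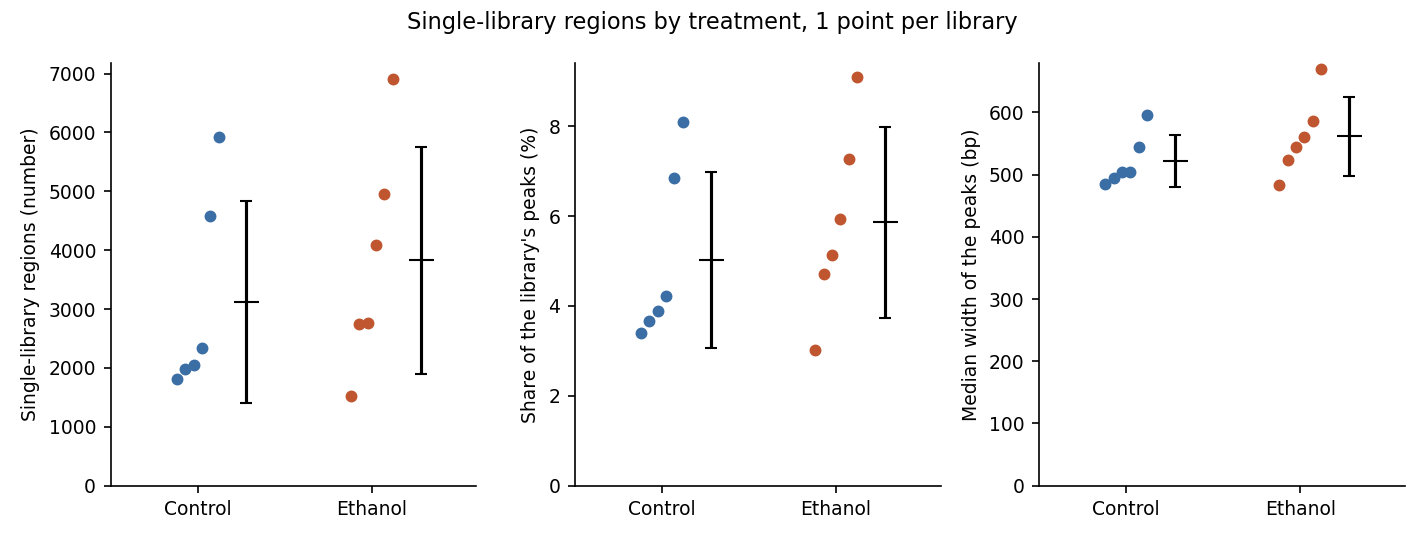
Each point is 1 library, set side by side in order of value, and bars show the mean and SD of 6 libraries per group. The panels give the number of single-library regions, their share of the library's peaks in percent and the median width of their peaks in bp (y axes from 0) for Control and Ethanol (x axes). In each panel the groups overlapped and 1 Ethanol library lay above every Control library.

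The number of members followed the size of the list. Libraries differed 1.506 times in their number of peaks but 4.552 times in their number of single-library regions, and the 3 libraries with the most members supplied 17778 of them (42.68%). The number was set against the length a library covered in regions of at least 2 libraries, which contains no member. This length ran from 74.46 to 129.2 Mb. Over the 12 libraries, Pearson's r was 0.949 and Spearman's rho 0.839 (permutation tests with 100000 resamples, p = 2e-05 and 0.00107, or 4e-05 and 0.00107 adjusted over the 2 coefficients). The fitted slope was 97.9 additional members per additional Mb. Without the 2 libraries farthest from the median length, r was 0.878 over 10 libraries (permutation test, p = 0.00127).

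Both coefficients were positive in each treatment group on its own, but rho in Control did not pass 0.05. Control 5 and Control 6 lay apart from the rest of their group. They covered 94.89 and 113.4 Mb in shared regions, against 74.46 to 79.77 Mb in the other Control libraries, so the Control r leans on them. In Control, r was 0.981 and rho 0.829 (n = 6, exact permutation tests, p = 0.0125 and 0.0583), and in Ethanol r was 0.926 and rho 0.943 (n = 6, exact permutation tests, p = 0.00694 and 0.0167). With the same number of peaks from each list, r was -0.516 (permutation test, p = 0.0958), in the opposite direction. In that setting members and shared peaks add up to 50370 in each list, so the 2 axes are linked. How far this link moved r was not tested, and the positive relation was not seen with equal numbers of peaks. Divided by the shared length, the number of members was 34.5 ± 12.4 per Mb in Control and 38.9 ± 12.8 per Mb in Ethanol (SD over 6 libraries, exact permutation p = 0.556). Of the 3 libraries with the most members, 2 were Ethanol and 1 Control.

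**Figure D3:**
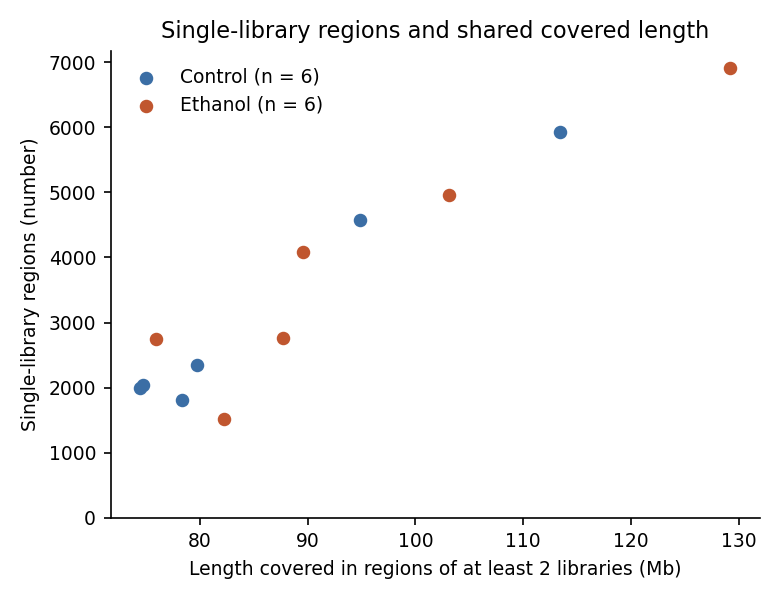
Each point is 1 library, with the length it covered in regions of at least 2 libraries in Mb (x axis, not starting at 0) and its number of single-library regions (y axis), in blue for Control and in orange for Ethanol. The points of both groups rise together up to the library with 6905 regions and 129.2 Mb, with r = 0.949 over all 12.

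The members' distance from constantly open chromatin was set against that of other regions that were not open throughout. The gap to the nearest region open in all 12 libraries had a median of 20995 bp, with quartiles of 6052.2 and 63236.5 bp. For regions of 2 to 11 libraries the median was 22463.5 bp. Under 1 kb lay 7.645% of the members, from 1 to 10 kb 26.01%, from 10 to 100 kb 49.16%, and 100 kb or more 17.18%. The corresponding shares for regions of 2 to 11 libraries were 8.537%, 24.3%, 48.99% and 18.18%. The median was taken in each library for its own peaks and compared within the library. It was 21357 ± 4253 bp for the members and 20750 ± 1955 bp for peaks in regions of 2 to 11 libraries (SD, n = 12), and the mean difference of 606 bp was within the spread (two-sided exact sign-flip test, p = 0.447, members closer in 5 of 12 libraries). Without Control 3 it was 230 bp. The sign of this difference was not stable: against regions of exactly 2 libraries it was -806 bp (two-sided exact sign-flip test, p = 0.0957). Among the higher scoring 50% of each list, whose single-library regions are mostly different ones, it was 7035 bp (two-sided exact sign-flip test, p = 0.0454).

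The treatment groups overlapped in this distance. The median distance per library ran from 16864 to 31535.5 bp in Control and from 14978 to 25235 bp in Ethanol, with means of 22031 ± 5162 and 20683 ± 3470 bp (SD over 6 libraries, exact permutation p = 0.636). Without Control 3, the library with the greatest median, the difference turned from -1348 to 498 bp. The difference between members and regions of 2 to 11 libraries was 688 bp among Control and 525 bp among Ethanol libraries (exact permutation p = 0.92).

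**Figure D4:**
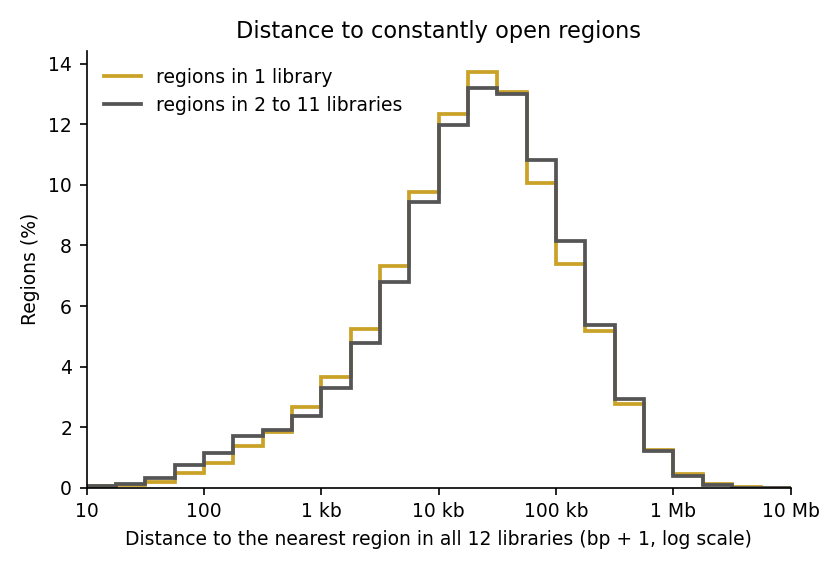
The plot gives the percent of regions (y axis) by their distance to the nearest region open in all 12 libraries in bp plus 1 (x axis, log scale), for single-library regions in gold and regions of 2 to 11 libraries in grey. Both outlines peak between 10 and 100 kb and lie close together, with medians of 20995 and 22463.5 bp.

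The immediate neighbours of the members were mixed. The nearest region of any kind lay at a median of 2112 bp and within 500 bp for 8858 members (21.27%), while 8365 members (20.08%) had no other region within 10 kb. The neighbour was another single-library region in 36.62% of cases, a region of 2 to 11 libraries in 45.78% and a region of all 12 in 17.6%. In 45.83% of cases the neighbour held a peak of the same library. Where 2 single-library regions were neighbours, both came from the same library in 12.55% of cases, and the totals of the libraries alone would give 10.33%. Among such neighbours less than 1 kb apart the share was 14.26%. Both came from the same treatment group in 51.81% of cases, where the group totals would give 50.53%. The totals do not allow for the merging, in which overlapping peaks of different libraries leave the class, so they are no exact benchmark. Merging across gaps of up to 500 bp lowered the number of single-library regions from 41650 to 32966, or 32.11% of the union.

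The most remote members lay far from any other region, at gaps of 150159 bp or more. The Ethanol region on chromosome X from 99466903 to 99467747 was 4403864 bp from the nearest region open in all 12 libraries, and a second Ethanol region on chromosome X from 99023950 to 99024308 was 3960911 bp away. These 2 were neighbours of each other, at a gap of 442594 bp. The Control regions at the far end were on chromosome 2 from 132791958 to 132792439, at 3963656 bp, and on chromosome X from 100554152 to 100554568, at 3937785 bp. All 4 had another single-library region as their nearest neighbour.

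By chromosome, members were dense where constantly open regions were dense. Over the 20 autosomes, the single-library regions per Mb and the regions of all 12 libraries per Mb had r = 0.891 and rho = 0.823, given as a description since chromosomes share the same libraries and differ in gene content. Chromosome 12 was the densest with 28.65 members per Mb and chromosome 2 the sparsest autosome with 11.09. In windows of 10 Mb the number of members ran from 2 to 391 with a median of 132, and over 290 windows it had r = 0.962 with the number of regions of 2 to 11 libraries and r = 0.851 with that of all 12. The window with the most lay on chromosome 5 between 150 and 160 Mb. The share of a chromosome's regions that were single was narrow among autosomes, from 32.35% on chromosome 14 to 36.91% on chromosome 12. Relative to constantly open regions, chromosome 16 had the most members, with 2.309 per region of all 12 libraries.

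Chromosome X stood at the other end. It had 408 members, 2.552 per Mb, and 1.02 members per region of all 12 libraries, fewer than any autosome, of which chromosome 19 was lowest at 1.42. Male rats carry a single copy of X. Of its regions, 28.43% were single, against 35.12% of all autosomal regions. Within libraries, from 0.5437% to 1.439% of the members' peaks lay on X, with a median of 0.9595%, against 1.188% to 1.388% of the library's other peaks. The means were 0.992% ± 0.316 and 1.28% ± 0.07 (SD, n = 12), and members had the lower share in 9 of 12 libraries (two-sided exact sign-flip test, p = 0.00732, or 0.01465 adjusted over this test and that of distance). The other peaks are mostly those of widely shared regions: 0.9796% of single-library regions lay on X, 0.9899% of regions of 2 libraries and 1.848% of regions of all 12. With gaps of up to 500 bp merged, the difference was -0.105 percentage points in place of -0.286 and no longer passed (two-sided exact sign-flip test, p = 0.2905). Among the higher scoring 50% of each list it was -0.606 points (two-sided exact sign-flip test, p = 0.0083). The difference was -0.288 points in Control and -0.284 points in Ethanol (exact permutation p between the groups = 0.985). Chromosome Y held 12 members among its 31 regions.

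**Figure D5:**
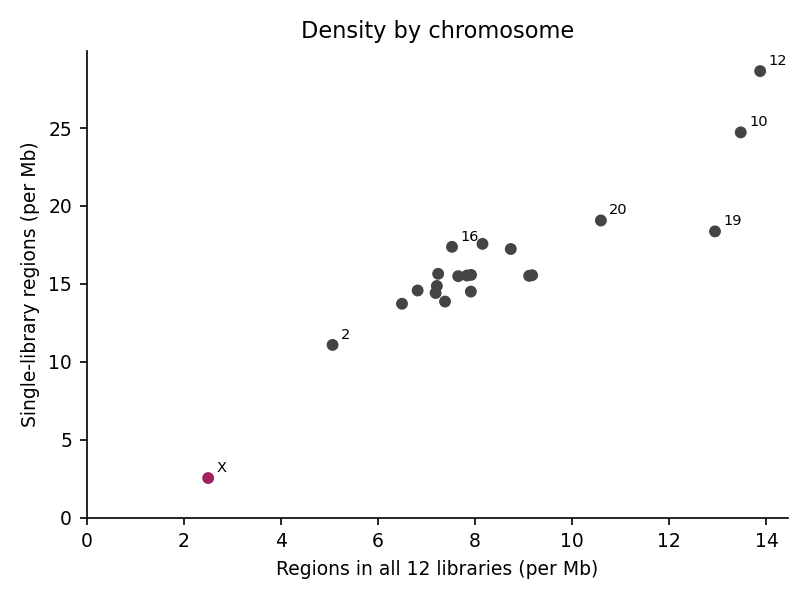
Each point is 1 chromosome, with regions open in all 12 libraries per Mb (x axis) and single-library regions per Mb (y axis), and some chromosomes are labelled. Chromosome X, in purple, lies lowest at 2.552 members per Mb and chromosome 12 highest at 28.65.

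The spread over chromosomes was compared between treatments as the percent of each library's members on a chromosome. Of 21 chromosomes, 0 passed an adjusted p under 0.05 (0% called, exact permutation tests with Benjamini-Hochberg adjustment) and 0 had an unadjusted p under 0.05. The smallest p was that of chromosome 1, which held 10.2% ± 0.46 of the members in Control and 10.9% ± 0.72 in Ethanol (SD over 6 libraries, exact permutation p = 0.0649, or 0.952 adjusted). In windows of 10 Mb, the log2 share of a library's members was compared with limma. Of 279 windows with at least 2 members per library on average, 0 passed a limma adjusted p under 0.05 (0% called) and 9 had an unadjusted p under 0.05, of which 3 were higher in Ethanol and 6 lower. The smallest p belonged to chromosome X between 70 and 80 Mb, with a log2 difference of 1.29 ± 0.36 (SE, limma adjusted p = 0.545). Without Control 4 this window had a log2 difference of 1.56 ± 0.31 (SE) and a limma adjusted p of 0.0438, the only pass in the 12 fits that left out 1 library. The window held only 30 members over all 12 libraries, so both log2 differences rest on few regions per library.

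Members were uneven between the groups in a stretch already known from these data for its group difference, chromosome 15 between 29 and 33 Mb, and are described there without a test. Control libraries had 0 to 5 single-library regions in it with a median of 1, and Ethanol libraries 6 to 73 with a median of 10, so the groups did not overlap within these borders. That was 0.0508% ± 0.0377 of a Control library's members and 0.680% ± 0.990 of an Ethanol library's on average (SD over 6 libraries). The Ethanol SD exceeded its mean, so this mean is not typical of the Ethanol libraries. On a fixed grid of 576 windows of 4 Mb with at least 2 members per library on average, the groups did not overlap with Ethanol higher in 0 (0%), so the separation in the stretch depended on where its borders were set. The 117 Ethanol members included 73 of Ethanol 3, without which the Ethanol mean fell from 19.5 to 8.8 regions per library, against 1.67 in Control. The 211 regions of 2 to 11 libraries in the stretch were also more often listed in Ethanol, with 72 to 174 of them per library and a median of 117, against 22 to 94 and a median of 52.5 in Control, and these ranges overlapped. The 127 single-library regions lay within windows that did not pass in the scan of 10 Mb windows.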

How the data were processed

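ATAC-seq peak lists of 12 rat amygdala libraries were used. Per the labels, a Nextera kit was used for tagmentation and both fragment ends were sequenced. The submitters' processing notes name BWA, MACS2 2.1.1, bedtools 2.27.1, featureCounts 1.5.0, edgeR and the build Rnor_6.0 without order. The authors deposited chromosome, start, end, name and a score for each peak, listed per library. The scale of the score, the filter behind each list, the handling of duplicates or mitochondrial reads and any transposase shift are not given in the sources used here. Each list stops at its own lowest score, so which weak peaks are listed can differ between libraries.

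Groups and numbers came from the titles. Merging, distances and exact tests were done in Python 3.11.15 (numpy 2.4.6, pandas 2.3.3), and windows were fitted in R 4.3.3 with limma 3.58.1 (lmFit, eBayes) on log2 of members plus 0.5 over the library total plus 1. Group means were compared over all 924 assignments (smallest p 0.00216), paired values over 4096 sign flips (smallest p 0.000488). Where peaks were selected by score, ties were broken at random with a fixed seed. Steps were tested on simulated lists.

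Named were, per group, the 3 members highest in score percentile, the 2 widest and the 2 farthest from a region of all 12 libraries, the chromosomes at the ends of the ratio of members to such regions, and windows that passed. Other chromosomes, windows and the chromosome 15 stretch were singled out after their values were seen. The members and the tests were chosen with earlier results of these data known. Cell type markers and shares near a transcription start site need gene positions in this build and were not analysed here.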

Additional observations from a re-analysis of the deposited data

Results flagged for a closer look

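Of 18 groups of 6 libraries examined for a value far from the rest, 2 held one, and chance gives about 1 in 20. The median score percentile of the members was 23.05 in Ethanol 6, against 9.654 to 10.22 in the other 5 Ethanol libraries. Scores are tied in steps: in Ethanol 6, 49.15% of the members carried the lowest score, so the median fell on the next value, while in every other library the lowest score held more than 50% of the members. The median distance of the members to a region of all 12 libraries exceeded that of regions of 2 to 11 libraries by 6197.5 bp in Control 3, against differences from -2261 to 633.5 bp in the other 5 Control libraries.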

How the results depend on the processing

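Under alternatives other than leaving out a library, 58 of 66 values held in direction and call, as did 141 of 144 with 1 library left out. Division by shared length and the 4 Mb windows were added after seeing the data. The share near transcription start sites was not run. With the same number of peaks from each list, the Ethanol minus Control difference was -1 region and -0.00199 percentage points of peaks, the relation to shared length had r = -0.516, and the distance difference to regions of 2 to 11 libraries was -381 bp (from 606 bp). Members and shared peaks then add up to the same number in each list, and how far this moved r was not tested. Only 60.28% of those single-library regions were members in the full lists. With the higher scoring 50%, of whose single-library regions 10.76% were members, the score percentile difference was -1.43, and the distance difference was 7035 bp and passed. In the full lists, the distance difference against regions of 2 libraries was -806 bp. With gaps up to 500 bp merged, the X difference was -0.105 points and did not pass.

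With 1 library left out, the group difference ranged from 129.8 (without Ethanol 6) to 1472 regions (without Control 6), in length from 0.0808 to 1.25 Mb, in width from 21.7 to 57.9 bp, in score percentile from -0.0657 to 2.61 and in distance from -2132 to 498 bp. The relation had r from 0.919 to 0.968, the X difference ran from -0.323 to -0.246 points, and 0 to 1 windows passed. With the replicate number as a block, the difference of 712.3 regions had an exact sign-flip p of 0.4375 (smallest possible 0.03125) and no call changed. Libraries with the same number correlated over windows at -0.0964 to 0.221, with a mean of 0.0597 (-0.0105 for other pairs). Members are by the rule absent from every other library, so this does not show whether same-numbered libraries share more than a number. The lists limit all values: without read counts, a region missing from a list may lie just under its threshold, and the cause of the changes above was not tested.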
